A study of Mus musculus with 31 samples.

Results

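Immediate early genes are the genes a neuron switches on within minutes of being active, before any new protein has been made. The 10 genes described here are Egr1, Egr2, Egr3, Egr4, Nr4a1, Nr4a3, Fos, Fosb, Arc and Homer1, and a gene entered through the array feature that carried its symbol, alone, in the platform's gene table. This gave 9 genes with 1 feature each, among 16345 features in all, and Fosb is not analysed here. The features were 6859972 for Egr1, 6768479 for Egr2, 6820055 for Egr3, 6955152 for Egr4, 6833311 for Nr4a1, 6913315 for Nr4a3, 6796691 for Fos, 6836691 for Arc and 6808997 for Homer1. No filter on low values was applied, so all 9 were tested in every comparison.

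The values come from translating ribosome affinity purification, in which a transgene under the promoter of a cell type's gene makes a tagged ribosomal protein and the RNA on the tagged ribosomes is pulled out of the tissue. Mice were 6 weeks old (young) or 2 years old (old), the tissue was the whole cortex or the whole striatum, and the cells expressed the dopamine receptor gene Drd1a (now Drd1) or Drd2. The 8 groups held 4 exon arrays each, except young striatum Drd1a, which held 3, for 31 arrays. The labels give no treatment or stimulus, and they do not say that each array of a group is another mouse, so the spread behind a p-value may be technical.

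Activity reaches these genes along calcium, cAMP and ERK signalling, which ends on CREB and on serum response factor already bound at their promoters. Most of the products are transcription factors that carry the signal on to a later set of genes, while Arc and Homer1 act at the synapse. In the striatum, direct-pathway neurons express Drd1 and indirect-pathway neurons express Drd2, and dopamine acting on the receptors is a well-known inducer and repressor of Egr1, Fos and Nr4a1 there. In cortex both receptors mark mixed sets of neurons.

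The elements that receive such signals can be looked for in the promoters. RefSeq promoters were given for 7 of the 10 genes (Egr2, Egr4, Nr4a1, Nr4a3, Fos, Fosb and Homer1), and the 250 bases before the transcription start were searched. All are on build GRCm38.p6, which is not the build of the arrays, and the start with the most matches is shown for a gene with several. The 4 printed below belong to the genes that the age and region differences turn on, and to Fos as the best-known member. Capitals mark TGACG, the short form of the cAMP response element that CREB binds, on either strand (CGTCA is TGACG on the other strand), and in Egr2 also the CArG box, the element bound by serum response factor.
Egr2, chr10:67537619-67537868, plus strand: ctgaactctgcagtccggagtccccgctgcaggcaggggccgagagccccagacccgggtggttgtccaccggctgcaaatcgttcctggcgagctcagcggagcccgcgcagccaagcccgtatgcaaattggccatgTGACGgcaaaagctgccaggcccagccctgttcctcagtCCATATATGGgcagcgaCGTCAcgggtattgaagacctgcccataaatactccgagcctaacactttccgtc
Nr4a1, chr15:101266596-101266845, plus strand: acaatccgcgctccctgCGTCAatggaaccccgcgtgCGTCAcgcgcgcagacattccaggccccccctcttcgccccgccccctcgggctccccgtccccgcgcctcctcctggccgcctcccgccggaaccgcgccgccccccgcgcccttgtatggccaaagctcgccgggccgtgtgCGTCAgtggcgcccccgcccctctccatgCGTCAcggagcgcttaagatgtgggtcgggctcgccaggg
Homer1, chr13:93303507-93303756, plus strand: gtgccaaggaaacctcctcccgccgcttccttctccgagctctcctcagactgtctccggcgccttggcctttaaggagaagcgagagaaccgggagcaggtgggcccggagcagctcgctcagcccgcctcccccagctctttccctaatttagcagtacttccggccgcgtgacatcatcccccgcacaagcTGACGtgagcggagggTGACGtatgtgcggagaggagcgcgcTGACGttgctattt
Fos, chr12:85473640-85473889, plus strand: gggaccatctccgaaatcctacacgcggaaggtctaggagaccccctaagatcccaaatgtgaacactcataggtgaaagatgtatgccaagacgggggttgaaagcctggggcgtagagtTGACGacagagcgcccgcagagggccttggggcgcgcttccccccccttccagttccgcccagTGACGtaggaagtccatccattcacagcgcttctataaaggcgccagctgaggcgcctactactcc
All 7 promoters held TGACG at the start shown, and 9 of the 12 annotated starts of these 7 genes did (75.0%), against 17.8% of all 32851 starts in the table. The Egr2 window held the only CArG box, from 72 to 63 bases before the start, an element found in 1.47% of all starts. The full palindrome TGACGTCA was in none of the 7 windows and in 1.55% of all starts. The EGR site GCGTGGGCG (0.536% of all starts), the AP-1 site TGANTCA (6.75%) and the NR4A site AAAGGTCA (1.34%) were in none of them. The searches read letters on both strands of these windows and say nothing of binding. Elements outside these 250 bases, and the promoters of Egr1, Egr3 and Arc, were not searched.

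Values are log2 intensities relative to each gene's own median over the 31 arrays, so 0 is the median array and a level cannot be set against that of another gene. The genes differed in how far the 8 groups lay apart. Egr2 spanned 3.53-fold from its highest to its lowest group mean, Egr3 2.32-fold, Nr4a1 1.96-fold and Homer1 1.82-fold. Egr1 spanned 1.47-fold, Nr4a3 1.30-fold, Fos 1.28-fold, Egr4 1.24-fold and Arc 1.23-fold.

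**Figure D1:**
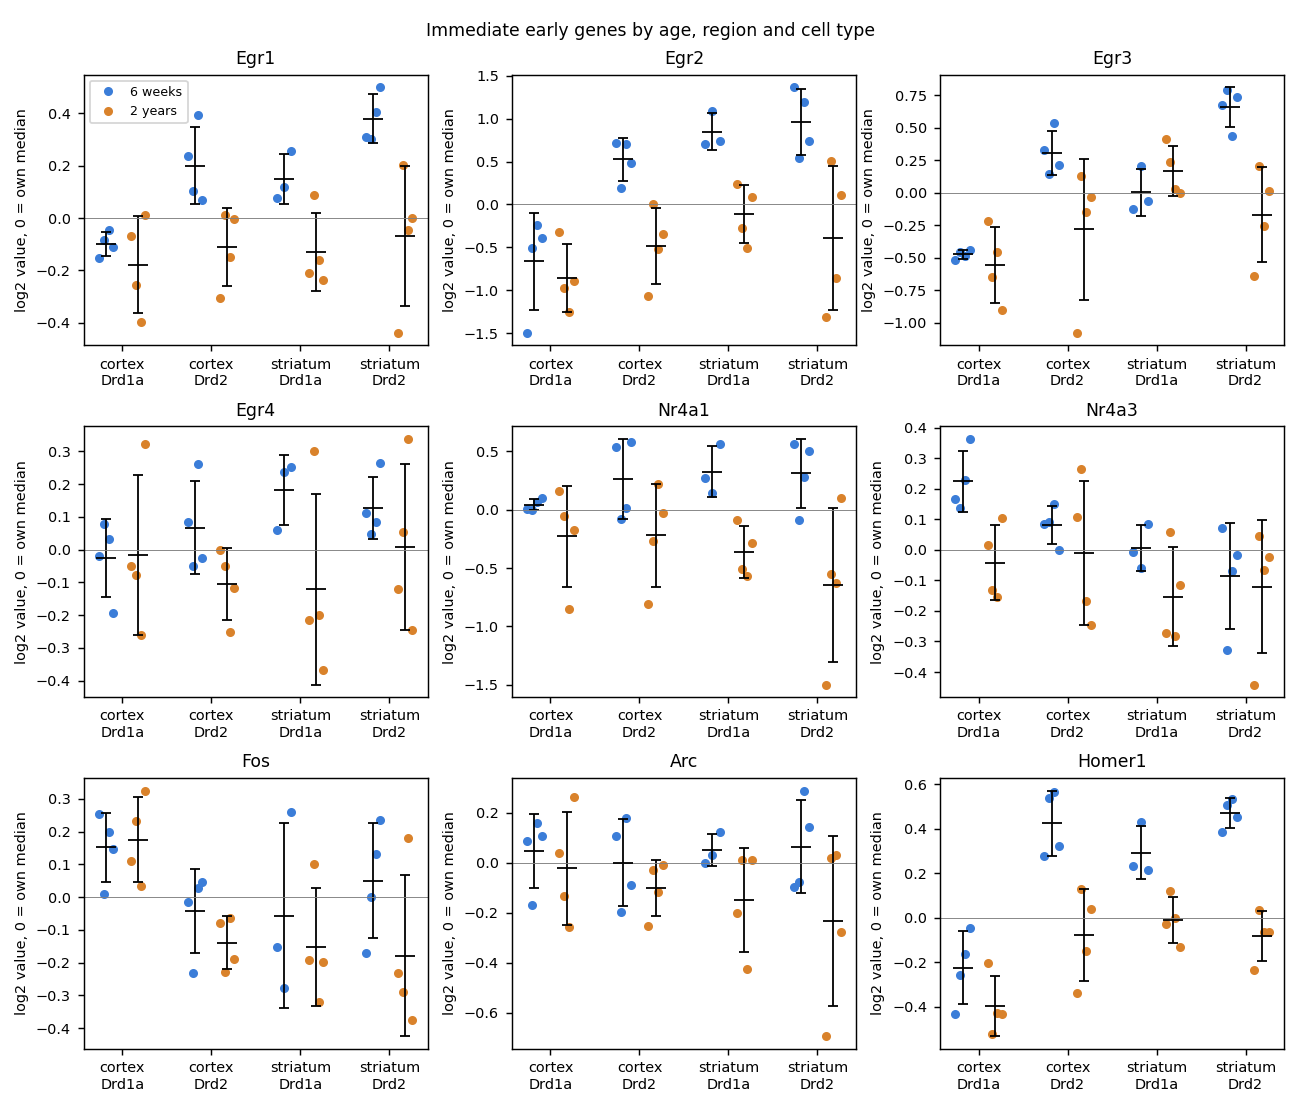
Values of the 9 immediate early genes in all 31 arrays, by region and cell type (x axis) and age (colour), as log2 intensity relative to the gene's own median (y axis, scaled per gene). Points are arrays and the bars give the group mean and SD. Homer1 lay at 0.38 to 0.54 in young striatum Drd2 arrays and at -0.24 to 0.03 in old ones.

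The young striatum Drd2 group had the highest mean of all 8 groups for Egr1, Egr2, Egr3, Arc and Homer1, and the old cortex Drd1a group the lowest for Egr1, Egr2, Egr3 and Homer1. Fos was unlike them, with its highest mean in old cortex Drd1a arrays, 0.17 ± 0.13 (SD, n = 4). For 8 of the 9 genes every pair of groups that were neighbours in the order of means overlapped in their arrays. Homer1 was the exception, with 6 of 7 neighbouring pairs overlapping and the gap lying between young striatum Drd1a (0.29) and old striatum Drd1a (-0.010).

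The receptor genes followed the cell type labels, although Drd1 was higher in old than in young Drd2 arrays. Drd1 lay between 1.56 and 1.86 in the 7 striatal Drd1a arrays, and from 0.07 to 1.19 in the cortical ones. In Drd2 arrays it lay between -3.13 and -2.50 in young striatum, between -0.58 and 0 in old striatum, between -2.93 and -2.87 in young cortex and between -1.90 and -0.76 in old cortex. Its age difference in Drd2 arrays was 2.41 in striatum and 1.73 in cortex (limma adjusted p 1.75e-09 and 1.8e-06). Drd2 was at or above 0 in every Drd2 array and at or below -2.90 in every Drd1a array. Array medians over all features ran from -0.072 to 0.13, and 6 arrays were above 0.05.

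With age, 5 of the 9 immediate early genes fell in Drd2 cells of the striatum: Egr1, Egr2, Egr3, Nr4a1 and Homer1. A gene is called here at a Benjamini-Hochberg adjusted p under 0.05 over all 16345 features in limma and a difference of at least 1.2-fold. Each pull-down pools RNA over many cells, so a change in the mix of cells and a change in ribosome-bound RNA per cell cannot be told apart. Of all features, 2.98% were called lower in this comparison. The differences of all 9 genes were below 0, with a median of -0.45 log2 units, against a median of -0.0084 and 53.9% below 0 over all features. In 4 of the 9 no old array reached any young one, and 5.43% of all features did the same.

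The EGR proteins are zinc-finger transcription factors that bind GC-rich sites. Egr2 had values of 1.37, 0.54, 1.20 and 0.74 in young striatum Drd2 arrays 1 to 4, and of -1.31, 0.51, -0.85 and 0.10 in old ones. Every young array lay above every old one, although old array 2 came close to young array 2. The fall was 1.35 ± 0.31 log2 units (SE), 2.55-fold, at an adjusted p of 0.00645.

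Egr3, which mice need to form muscle spindles, ran at 0.68, 0.79, 0.44 and 0.73 in young and at -0.64, 0.20, -0.25 and 0.02 in old arrays. The groups did not overlap, and the difference was -0.83 ± 0.19 (adjusted p 0.0059). Egr1, also called Zif268, read 0.31, 0.30, 0.40 and 0.50 in young arrays and -0.44, 0.20, -0.04 and 0.00 in old ones. They were apart as well, by -0.45 ± 0.11 (adjusted p 0.00903). Egr4, the fourth family member, gave -0.12 ± 0.13 (95% interval -0.38 to 0.14) and was not called.

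Nr4a1 and Nr4a3 are orphan nuclear receptors, of which Nr4a1 (Nur77) is the one best known to follow dopamine in the striatum. Nr4a1 stood at 0.56, -0.09, 0.28 and 0.50 in young striatum Drd2 arrays, and at -1.5, -0.55, -0.63 and 0.10 in old ones. Young array 2 was below old array 4, so the groups overlapped, and old array 1 was the lowest of all 31 arrays for this gene. Its difference was -0.96 ± 0.25 (adjusted p 0.0155). Nr4a3 differed by -0.035 ± 0.11 (interval -0.26 to 0.19), with old array 1 at -0.44 and the other 3 between -0.07 and 0.04.

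Homer1 encodes a postsynaptic scaffold whose short, activity-induced form competes with the long forms. One feature covers the gene here, so the forms cannot be told apart. Its young striatum Drd2 values were 0.38, 0.51, 0.54 and 0.45, and its old values -0.24, 0.03, -0.06 and -0.06. All old arrays lay well under all young ones, and the change of -0.55 ± 0.096 had the smallest adjusted p among the 9 genes, 0.000505. Arc, which promotes the removal of AMPA receptors from synapses, read -0.10, -0.08, 0.29 and 0.14 in young and -0.69, 0.02, 0.03 and -0.28 in old arrays. Those groups overlapped, and Arc (-0.30 ± 0.13, adjusted p 0.245) and Fos, the AP-1 subunit (-0.23 ± 0.12, adjusted p 0.329), were not called.

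Old striatum Drd2 array 1 was the lowest of its group for 7 of the 9 genes, with a mean over them of -0.62 against -0.15, -0.085 and 0.025 in the other 3. Without it Egr1 (-0.33, adjusted p 0.0571) and Nr4a1 (-0.67, adjusted p 0.0963) were no longer called, while Egr2, Egr3 and Homer1 were. Nr4a1 also lost its call without young array 1 (-0.87, adjusted p 0.0578). With only the 2 groups compared in the fit, Egr3 and Homer1 kept their calls and Egr1, Egr2 and Nr4a1 did not (adjusted p 0.0779, 0.0691 and 0.0933).

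**Figure D2:**
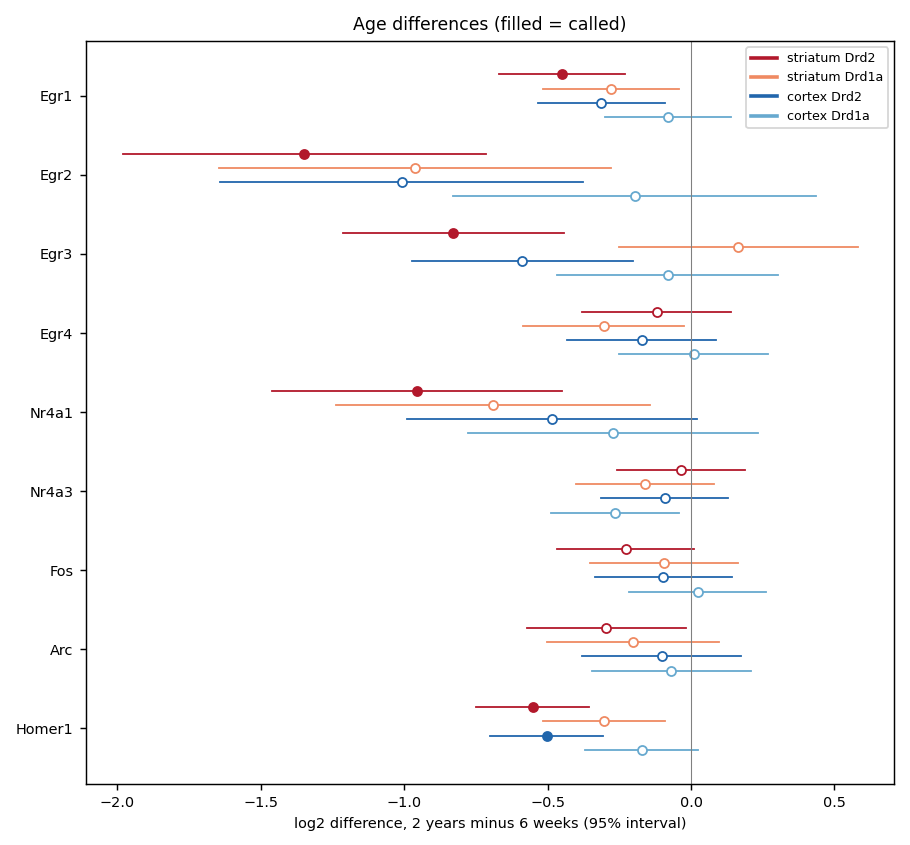
Age differences of the 9 genes, 2 years minus 6 weeks, in log2 units (x axis) in the 4 combinations of region and cell type. Points are limma estimates with 95% intervals, and filled points were called. The filled points are Egr1, Egr2, Egr3, Nr4a1 and Homer1 in striatum Drd2, and Homer1 in cortex Drd2.

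In cortical Drd2 cells 1 of the 9 genes fell with age, Homer1, where 1.78% of all features were called lower. Its young arrays read 0.28, 0.54, 0.56 and 0.32 and its old arrays -0.34, 0.13, -0.15 and 0.04. The groups were apart, by -0.50 ± 0.096 (adjusted p 0.00335; 0.0778 with only these groups in the fit). Egr2 (-1.01 ± 0.31, adjusted p 0.06), Egr3 (-0.59 ± 0.19, adjusted p 0.0729) and Egr1 (-0.31 ± 0.11, adjusted p 0.1) were not called.

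All 9 differences in cortical Drd2 cells were below 0, with a median of -0.31 against -0.023 over all features. Every old array lay below every young one for Egr1, Egr2, Egr3 and Homer1, 4 of the 9 genes, and for 5.28% of all features. Egr2, with the largest of these log2 differences, stood at 0.72, 0.19, 0.70 and 0.49 in young and -1.07, 0.00, -0.52 and -0.35 in old arrays. Old cortex Drd2 array 1 was the lowest of its group for 6 of the 9 genes, Egr3 among them, at -1.08 where the other 3 were between -0.15 and 0.13.

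In striatal Drd1a cells limma called none of the 9 genes, where 3.43% of all features were called in either direction. An unadjusted p under 0.05 was reached by 5 of the 9, and all features were not counted at that threshold. The differences of 8 of the 9 genes were below 0, as were those of 65.8% of all features. Egr2 read 0.71, 1.09 and 0.74 in the 3 young arrays and 0.24, -0.28, -0.51 and 0.08 in the 4 old ones. The arrays were apart by age, and the difference of -0.96 ± 0.33 had an adjusted p of 0.111. Nr4a1 (-0.69 ± 0.27, adjusted p 0.166) and Homer1 (-0.30 ± 0.10, adjusted p 0.109) were also lower in every old array than in any young one, so the groups did not overlap for 3 of the 9 genes and for 6.89% of all features. Egr1 (-0.28, adjusted p 0.209) and Egr4 (-0.30, adjusted p 0.266) were the other 2 with an unadjusted p under 0.05.

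Egr3 was the 1 gene above 0 in striatal Drd1a cells. Its young arrays lay at -0.13, 0.21 and -0.07, and its old arrays at 0.41, 0.24, 0.03 and 0.00, a difference of 0.17 ± 0.20 (interval -0.25 to 0.58). The age difference in Drd1a cells minus that in Drd2 cells of the striatum came to 0.99 ± 0.28 for Egr3, with an unadjusted p of 0.00124 and an adjusted p of 0.248. It was the 1 gene of the 9 with an unadjusted p under 0.05 for that interaction, which limma called for none of them and for 0.0734% of all features. A difference between the cell types in the response of Egr3 to age was therefore not called.

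In cortical Drd1a cells the 9 genes were not called either, where 0.453% of all features were. Their median was -0.082 against 0.039 over all features, and the intervals still allow falls of moderate size: that of Homer1 ran from -0.37 to 0.025 and that of Egr2 from -0.83 to 0.44. Nr4a3 was the 1 gene with an unadjusted p under 0.05. Its young arrays read 0.17, 0.14, 0.23 and 0.36 and its old arrays 0.02, -0.13, -0.16 and 0.11, apart by -0.27 ± 0.11 (adjusted p 0.386), where 3.6% of all features were lower without overlap.

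The age differences were also compared between cell types in cortex and between regions. For age by cell type in cortex, limma called none of the 9 genes and 0.104% of all features, and 1 gene had an unadjusted p under 0.05: Homer1, at 0.33 ± 0.14 (Drd1a minus Drd2, unadjusted p 0.0222, adjusted p 0.533). For age by region it called none of the 9 in Drd2 cells (0.0184% of all features) and none in Drd1a cells (0% of all features), with no unadjusted p under 0.05 among the 9 in either. Homer1 in Drd2 cells gave a difference between regions of -0.049 (interval -0.33 to 0.23). The comparisons that share a group share its arrays and are not independent.

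Markers of other cells moved with age in the same Drd2 arrays. In striatum Drd2 arrays 6 of 8 direct-pathway markers were called higher in old mice, against 2.72% of all features, and their mean per array went from between -1.40 and -1.11 in young to between -0.25 and -0.067 in old. Astrocyte markers were called higher for 4 of 11 (mean per array -0.53 to -0.33 in young, -0.21 to -0.091 in old) and oligodendrocyte markers for 2 of 13 (-0.26 to 0.19 in young, 0.24 to 0.37 in old).

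In cortex Drd2 arrays the counts called higher in old mice were 3 of 8 direct-pathway markers, 3 of 11 astrocyte markers and 4 of 13 oligodendrocyte markers, against 1.85% of all features. Old array 1, the lowest for most immediate early genes, had the highest astrocyte mean of its group, 0.79 against 0.096 to 0.50, and the highest oligodendrocyte mean, 0.76 against 0.10 to 0.48. In old striatum Drd2, array 1 had the highest astrocyte mean too, -0.091 against -0.21 to -0.11, and the highest oligodendrocyte mean, 0.37 against 0.24 to 0.29. Indirect-pathway markers were called higher for 2 of 5 in striatum Drd2 and 0 of 5 in cortex Drd2. Glutamatergic neuron markers were called higher for 1 of 10 in each (Foxp2), and interneuron markers for 0 of 9 in striatum and 1 of 9 in cortex (Slc5a7). No microglial (11 measured) or endothelial (11 measured) marker was called in either comparison by limma. In Drd1a arrays, where no immediate early gene was called with age, 3 of 13 oligodendrocyte markers were called higher in cortex, against 0.214% of all features. In striatum 1 of 5 indirect-pathway markers was called higher (1.58% of all features) and 1 of 9 interneuron markers, Cck, lower (1.85%). Values centred on each gene's median cannot show that a marker is absent, and the part of these markers in the age differences was not tested.

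Between regions, 2 of the genes were higher in striatum than in cortex in Drd1a cells of each age. In young Drd1a cells these were Egr2 and Homer1, where 9.94% of all features were called higher in striatum, and none was called lower, against 9.1% of all features. Egr2 read -1.49, -0.51, -0.24 and -0.40 in cortex against 0.71, 1.09 and 0.74 in striatum. No arrays overlapped, and striatum lay above cortex in this way for 5 of the 9 genes and 19.1% of all features. The Egr2 difference was 1.51 ± 0.33, or 2.85-fold (adjusted p 0.00111). Homer1 ran from -0.43 to -0.05 in cortex and from 0.22 to 0.43 in striatum, a difference of 0.52 ± 0.10 (adjusted p 0.000397).

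In old Drd1a cells the called genes were Egr3 and Homer1, where 7.32% of all features were higher in striatum. Egr3 read -0.21, -0.65, -0.46 and -0.90 in cortex and 0.41, 0.24, 0.03 and 0.00 in striatum, with no overlap. Striatum lay above cortex without overlap for 2 of the 9 genes and 9.09% of all features. Egr3 was higher by 0.73 ± 0.19 (adjusted p 0.00557), and Homer1 by 0.39 ± 0.096 (adjusted p 0.00401). Fos pointed the other way at -0.33 ± 0.12 and missed the threshold (adjusted p 0.0507). With each array centred on its median it was called, at -0.30 (adjusted p 0.0271).

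In Drd2 cells limma called none of the 9 genes between regions at either age, and none had an unadjusted p under 0.05, where 7.58% of all features were called in young and 11.3% in old mice. For Homer1 the interval of the difference was -0.15 to 0.24 in young and -0.20 to 0.19 in old mice. Egr2 in young Drd2 cells had a difference of 0.43 with an interval from -0.20 to 1.07, which leaves room for a large one.

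Markers of other cells differed between regions in both cell types. In young Drd1a cells 8 of 11 astrocyte and 5 of 9 interneuron markers were called lower in striatum and none higher. Of 10 glutamatergic markers 6 were lower and 2 were higher, Bcl11b and Foxp2, which striatal neurons also express. Higher in striatum were 7 of 8 direct-pathway and 3 of 13 oligodendrocyte markers. Of all features, 9.1% were called lower and 9.94% higher in young Drd1a cells. In old Drd1a cells 8 of 11 astrocyte, 5 of 9 interneuron and 6 of 10 glutamatergic markers were lower, against 8.8% of all features. The same 2 glutamatergic and 6 of 8 direct-pathway markers were higher there, against 7.32%. In Drd2 cells, where no immediate early gene was called, 5 of 10 glutamatergic markers were lower and 2 higher at each age, and 5 of 9 interneuron markers were lower. Astrocyte markers were lower there for 3 of 11 in young and 6 of 11 in old striatum. Of all features, 4.57% were called lower and 3.01% higher in young Drd2 cells, and 6.31% and 5.04% in old ones. The part of these cells in the region differences was not tested.

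**Figure D3:**
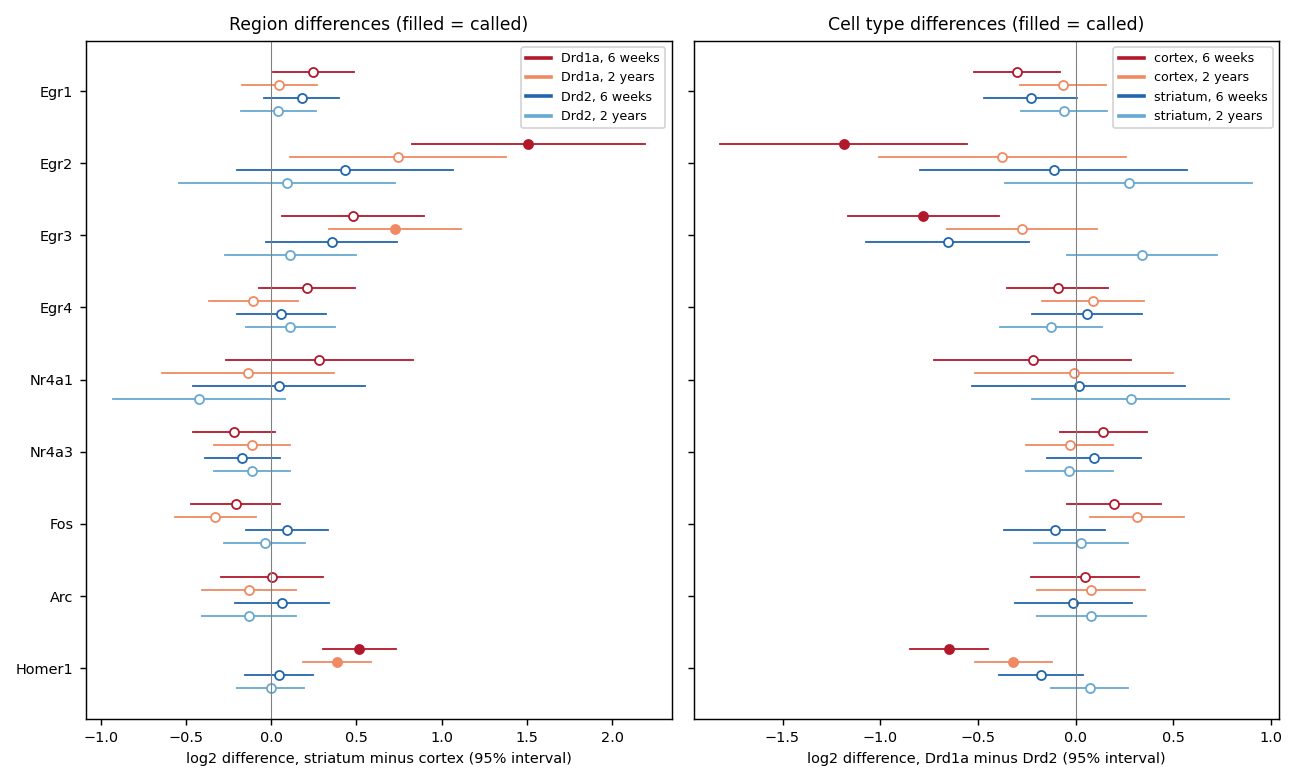
Region differences (left, striatum minus cortex) and cell type differences (right, Drd1a minus Drd2) of the 9 genes in log2 units, with 95% intervals from limma. Filled points were called. They are Egr2, Egr3 and Homer1, all in Drd1a cells on the left and all in cortex on the right.

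Between cell types, 3 of the 9 genes were called lower in Drd1a than in Drd2 cells of young cortex, Egr2, Egr3 and Homer1, where 5.3% of all features were. Homer1 read -0.43, -0.26, -0.16 and -0.05 in Drd1a and 0.28, 0.54, 0.56 and 0.32 in Drd2 arrays, a gap with no overlap. Every Drd1a array lay below every Drd2 array for 4 of the 9 genes and 9.78% of all features. The Homer1 difference was -0.65 ± 0.096 (adjusted p 1.46e-05). Egr3 was tight in Drd1a arrays, from -0.52 to -0.44, and lay between 0.15 and 0.53 in Drd2 arrays, apart by -0.78 ± 0.19 (adjusted p 0.00426). Egr2 differed by -1.19 ± 0.31 (adjusted p 0.00818), and without young cortex Drd1a array 1, its lowest at -1.49, it was no longer called (-0.91, adjusted p 0.061).

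In old cortex Homer1 alone was called lower, 1 of 9, where 2.66% of all features were. Its values were -0.20, -0.52, -0.43 and -0.43 in Drd1a and -0.34, 0.13, -0.15 and 0.04 in Drd2 arrays, so the groups overlapped. The difference of -0.32 ± 0.096 (adjusted p 0.0413) lost its call when any 1 of 6 of the 8 arrays was left out, with adjusted p up to 0.186. Fos stood 0.31 ± 0.12 higher in Drd1a than in Drd2 cells of old cortex and was not called (adjusted p 0.11).

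In striatum limma called none of the 9 genes between cell types, where 3.05% of all features were called in young and 2.81% in old mice, and 1 of the 9 in young and none in old had an unadjusted p under 0.05. That 1 gene was Egr3 in young striatum, at -0.65 ± 0.20 (adjusted p 0.0786), with -0.13, 0.21 and -0.07 in Drd1a against 0.44 to 0.79 in Drd2 arrays. In old striatum the same difference was 0.34 ± 0.19 (interval -0.046 to 0.72). Marker lists differed between the cell types of cortex. In young cortex 6 of 11 astrocyte, 6 of 10 glutamatergic and 3 of 9 interneuron markers were called higher in Drd1a arrays, against 6.67% of all features. Lower there were 2 glutamatergic, 2 interneuron and 4 of 13 oligodendrocyte markers, against 5.3% of all features. In old cortex 2 of 11 astrocyte, 3 of 10 glutamatergic and 4 of 9 interneuron markers were higher, against 3.82% of all features. In the same comparison 1 glutamatergic, 2 interneuron and 6 of 13 oligodendrocyte markers were lower, against 2.66%. Their part in the gene differences was not tested. In striatum no astrocyte or oligodendrocyte marker was called between the cell types by limma at either age. Of 10 glutamatergic markers 1 was called higher and 2 lower in Drd1a arrays of young striatum, and 1 and 1 in old. Of 9 interneuron markers 1 was called higher and 1 lower in young striatum, and 2 and 2 in old. Of all features, 1.68% were called higher and 1.37% lower in young striatum, and 1.63% and 1.18% in old.

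Within groups the genes tended to move together from array to array. After each group's mean was subtracted, 30 of the 36 pairs of genes had a Pearson correlation above 0 over the 31 arrays, with a median of 0.446. Egr1 and Arc were highest at 0.773 (Spearman 0.713, and Pearson 0.724 without the 2 arrays farthest from the median of Arc). Egr3 and Homer1 followed with 0.661 and Egr2 and Egr3 with 0.626. Fos correlated with Egr4 (0.603), Arc (0.525) and Egr1 (0.287), and was below 0 with Egr2 (-0.301), Egr3 (-0.233) and Homer1 (-0.182). Egr4 was near 0 with Egr2 and Egr3 (-0.056 each) and with Nr4a1 (-0.076). With each array first centred on its median, 28 of the 36 pairs were above 0, with a median of 0.364. Fos then gave 0.326 with Egr4, 0.398 with Arc and 0.036 with Egr1. The values rose to 0.667 for Egr2 and Egr3 and to 0.754 for Egr3 and Homer1. Pairs of other genes were not examined in this way. These arrays share their hybridisation and scaling, and the values are a description.

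**Figure D4:**
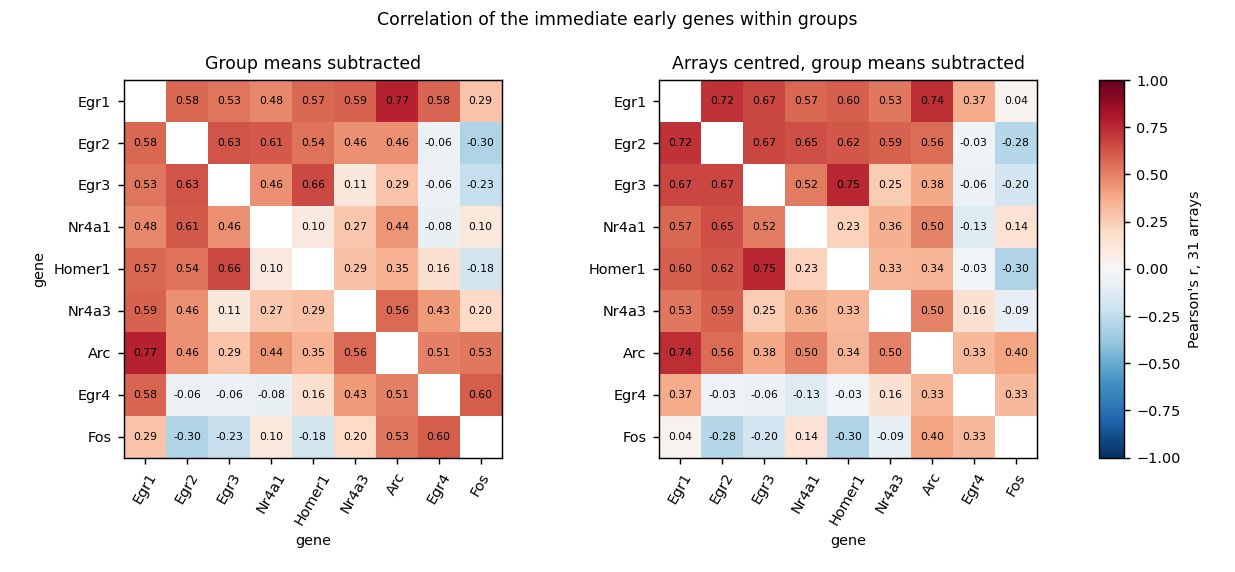
Pearson correlations between the 9 genes over 31 arrays after group means were subtracted (left), and the same with each array first centred on its median over all features (right). Rows and columns are genes. The Egr1, Egr2, Egr3 and Homer1 block is positive in both panels, and Fos is near or below 0 with Egr2, Egr3 and Homer1.

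Egr4 and Fos also followed the overall level of the array. Within groups, the correlation with the array's median over all features was 0.851 for Egr4 and 0.692 for Fos. It was -0.308 for Egr2, -0.381 for Egr3, -0.196 for Nr4a1 and -0.147 for Homer1, the genes with the largest differences. Egr1, which was called with age in striatum Drd2 cells, lay between at 0.367, as did Nr4a3 (0.371) and Arc (0.356). Neither Egr4 nor Fos was called in any of the 16 comparisons as fitted, and the part of the array's level in their spread was not tested.

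**Figure D5:**
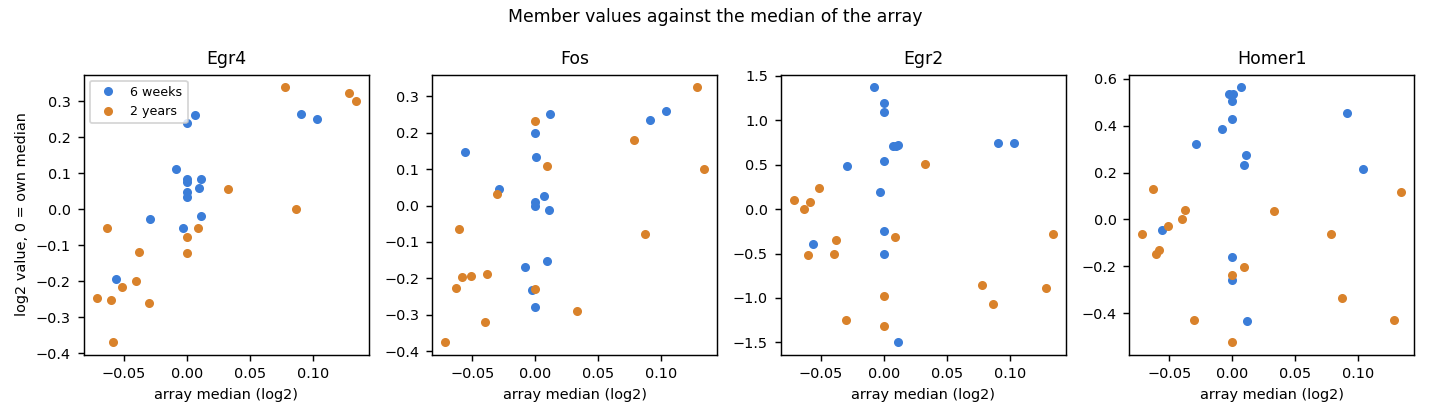
Values of Egr4, Fos, Egr2 and Homer1 (y axis, log2 relative to the gene's own median) against the median of the array over all features (x axis, log2), 1 point per array, coloured by age. Egr4 climbs with the array median while Homer1 does not.

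The wider set of activity genes was measured next to the 9. Of 31 other immediate early genes, 2 were lower in old than in young striatum Drd2 cells and none higher, against 2.98% and 2.72% of all features. They were Dusp6, the ERK phosphatase that ERK signalling itself induces (-0.52 ± 0.13, adjusted p 0.0157), and Fosl2, a Fos family member (-0.41 ± 0.087, adjusted p 0.0035). In striatum Drd1a cells, where 1.85% of all features were called lower and 1.58% higher, the same 2 were called lower, Dusp6 at -0.57 and Fosl2 at -0.33 (adjusted p 0.0237 and 0.0428), and Ier3 was called higher, at 0.69 (adjusted p 0.0154). Fosl2 was the 1 gene called in cortex Drd2 cells (-0.30, adjusted p 0.0468), and limma called none in cortex Drd1a cells.

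Of 20 upstream kinases and transcription factors, 2 were called higher and 1 lower with age in striatum Drd2 cells, 2 higher in striatum Drd1a, 1 higher and 1 lower in cortex Drd2 and, by limma, none in cortex Drd1a cells. Elk4, a partner of serum response factor, was called lower with age in Drd2 cells of striatum (-0.45, adjusted p 0.0174) and cortex (-0.46, adjusted p 0.0237). Camk2a, the calcium-dependent kinase of the synapse, was called higher in striatum Drd2 (0.33), striatum Drd1a (0.34) and cortex Drd2 (0.31) cells. Map2k1, the kinase that activates ERK, was higher in striatum Drd2 cells (0.36, adjusted p 0.000223), and Mrtfb, a coactivator of serum response factor, in striatum Drd1a cells (0.29, adjusted p 0.04). Called in either direction were 5.7% of all features in striatum Drd2, 3.43% in striatum Drd1a and 3.63% in cortex Drd2 cells. No partner or inhibitor of the 9 genes (13 measured, including the EGR repressors Nab1 and Nab2) was called with age in any cell type by limma.

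Of 14 delayed activity response genes, 2 were called higher with age in striatum Drd2 cells, 2 higher in striatum Drd1a, and 1 higher and 1 lower in cortex Drd2 cells, against 2.72%, 1.58% and 1.85% of all features called higher and 1.78% lower in cortex Drd2. Scg2, a secretory granule protein (0.61, adjusted p 0.00334), and the neuropeptide gene Tac1 (1.39, adjusted p 7.88e-06) were those of striatum Drd2 cells. In striatum Drd1a cells they were Scg2 (0.71, adjusted p 0.00361) and the enkephalin precursor Penk (0.38, adjusted p 0.0176). In cortex Drd2 cells Tac1 was higher (1.00, adjusted p 0.00166), and Crem, a CREB-family gene, was lower (-0.31, adjusted p 0.0424). Tac1 is itself a direct-pathway marker, and Penk is the indirect-pathway marker counted above as called higher in striatum Drd1a arrays. Bdnf, the neurotrophin of the list, was not called with age in any of the 4 combinations.

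The lists were compared between regions as well. Called higher in striatum were 9.94% of all features in young and 7.32% in old Drd1a cells, and 9.1% and 8.8% were called lower. In Drd2 cells 3.01% were higher and 4.57% lower in young mice, and 5.04% and 6.31% in old mice. Of 31 other immediate early genes 4 were called higher and 5 lower in striatum in young Drd1a cells, and 2 higher and 6 lower in old ones. In Drd2 cells the counts were 4 lower in young and 3 lower in old mice, with none higher. Nr4a2, the third NR4A receptor, was called lower in striatum than in cortex at both ages, with log2 differences of -4.35 in young and -4.11 in old Drd1a cells, and of -2.96 and -3.46 in Drd2 cells. Jun, the AP-1 partner of Fos, was lower in Drd1a cells too, at -1.03 in young and -0.90 in old mice. Of 14 delayed activity response genes 3 were higher and 4 lower in striatum in young Drd1a cells, and 1 and 5 in old ones. In Drd2 cells 5 of them were lower in young and 3 in old mice, with none higher. Of 20 upstream genes 5 were higher and 1 lower in young Drd1a cells, and 5 and 2 in old ones. Of 13 partners 3 were higher and 1 lower in young, and 2 and 2 in old Drd1a cells. In Drd2 cells 1 upstream gene was higher and 1 lower at each age. Among partners none was called in young, and 1 was higher and 1 lower in old Drd2 cells. Rps6ka5, the kinase MSK1 that phosphorylates histone H3 at these genes, was higher in striatum by 1.30 in young and 1.03 in old Drd1a cells, and Rxrg, a retinoid receptor that pairs with Nr4a1, by 1.76 and 1.11. Between cell types Rxrg was called lower in Drd1a than in Drd2 cells, at -1.59 in young and -1.07 in old cortex.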

How the data were processed

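Groups came from the sample labels. The submitters' processing notes name RMA and the build mm8, without a version. The authors deposited log2 intensities, with each feature set to a median of 0 (within 1e-06 for 16341 of 16345 features), which removes its absolute level, so signal over background could not be judged. A single entry without a decimal point in each of 3 deposited columns, recorded as unit other, was treated as missing, as was 1 empty entry; none belongs to an immediate early gene.

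The platform's gene table gave 1 symbol to 14793 features, several to 814 and none to 738. The main test was limma 3.58.1 (R 4.3.3), fitted to the 31 arrays with a mean for each of the 8 groups. It had 23 residual and 4.68 prior degrees of freedom and a common SD of 0.126. Tests were two-sided, and p-values were adjusted by Benjamini-Hochberg over 16345 features. The thresholds of 0.05 and 1.2-fold follow the study's own design text, which applies them to age; the comparisons of region, cell type and interactions used the same model. The code was tested on simulated data. Precision is limited by how few arrays there are: an age difference of 4 arrays against 4 had a median SE of 0.0987. The closest arrays of any group still differed with an SD of at least 0.16 over features, so no array of a group was a copy of another. Each was counted as 1 sample, but this cannot show that they come from separate mice.

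Same-numbered arrays were not treated as pairs: after group means were subtracted, only 3 of 15 pairs across ages, 6 of 15 across cell types and 3 of 15 across regions correlated above 0.1. The named genes are the 10 members, up to 3 called genes per list and comparison with the largest change, Drd1 and Drd2, and the 5 genes most like the mean of the members. The members, lists and tests were chosen with earlier results of these data known. Alternatives were quantile normalization, array centring, only the groups compared, a replicate block, array weights, a random block, robust limma-trend, 2 other fold thresholds and the omission of each array in turn. Leaving out the 6 arrays with a median above 0.05, or the old Drd2 arrays numbered 1, was added after seeing the data. Promoters are from RefSeq, build GRCm38.p6. Figures were drawn with matplotlib 3.10.9.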

Additional observations from a re-analysis of the deposited data

How the results depend on the processing

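No difference of an immediate early gene that was called changed sign under any alternative, and the counts of called genes moved as follows. With only the groups compared in the fit, calls were both lost and gained: age in striatum Drd2 gave 2 called genes instead of 5, cortex Drd2 0, striatum Drd1a 1 (Egr2), cell type in young striatum 1 (Egr3) and in old cortex 0. Calls were also gained by Egr3 for region in young Drd1a, Egr2 for region in old Drd1a and Egr1 for cell type in young cortex. Quantile normalization gave 3 with age in cortex Drd2 (Egr2, Egr3 and Homer1). It also added Fos for region in old Drd1a cells and Egr1 for cell type in young cortex. Array centring added Fos for region in old Drd1a cells too. Array weights gave 3 with age in striatum Drd1a, 4 for region in young and 4 in old Drd1a cells, 1 for cell type in young striatum and 2 in old cortex. They also added Egr1 for cell type in young cortex. The 1.5-fold threshold left 3 with age in striatum Drd2, 0 in cortex Drd2, 1 for region in young and 1 in old Drd1a cells, and 0 for cell type in old cortex. Without the 6 arrays with a high median, an alternative chosen after seeing the data, age in striatum Drd1a gave 1 (Egr4), region in young Drd1a 4 and cell type in old cortex 2. It also added Fos for region in old Drd1a cells and Egr1 for cell type in young cortex. With age in striatum Drd2 the count stayed at 5, as Nr4a1 lost its call and Fos gained one (-0.29, adjusted p 0.0425). Without both old Drd2 arrays numbered 1, also chosen after seeing the data, cell type in old cortex gave 2, and age in striatum Drd2 4. With each array left out in turn, the count ran from 3 to 5 for age in striatum Drd2, 0 to 1 in striatum Drd1a, 1 to 2 in cortex Drd2, 2 to 3 for region in old Drd1a, 2 to 3 for cell type in young cortex and 0 to 2 in old cortex, and did not move elsewhere. Leaving out 1 array added a call in these cases: old striatum Drd1a array 2 for Egr4 with age (-0.44, adjusted p 0.0463), old cortex Drd2 array 2 or 4 for Egr3 with age (-0.73 and -0.67, adjusted p 0.0444 and 0.0471), old cortex Drd2 array 1 for Egr3 between cell types (-0.54, adjusted p 0.0288), and old striatum Drd1a array 2 or old cortex Drd1a array 3 for Fos between regions (-0.41 and -0.37, adjusted p 0.0142 and 0.0405). The replicate numbers share no stated origin. With them as a block, region in old Drd1a cells gave 4 called genes, Egr3 was added for region in young Drd1a cells, and no other call changed. The 1.5-fold threshold can only remove calls; the cause of the other moves was not tested. The depth of an array file is not given, and dim features could not be filtered on centred values.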

Other observations

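The mean of the 9 immediate early genes was set against 13504 other named genes. Over the 31 arrays its 5 closest genes were Tpm1, an actin-binding tropomyosin (Pearson 0.828), Camkk2, a calcium-dependent kinase (0.809), Ccnd2, a D-type cyclin (0.808), Mlf2 (0.794) and Rgs20, a regulator of G protein signalling (0.794). Of these, Camkk2 (-0.42), Ccnd2 (-0.72), Mlf2 (-0.60) and Rgs20 (-0.86) were called lower with age in striatum Drd2 cells, and Tpm1 (-0.19) fell short of 1.2-fold. Camkk2 (-0.48), Ccnd2 (-0.97) and Mlf2 (-0.44) were also called lower in striatum Drd1a cells, where none of the 9 immediate early genes was. The pick used the same arrays with their age differences left in, so it favours genes that fall with age and gives no separate support.

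After group means were subtracted the 5 closest genes were different ones: Adam23 (0.759), Tmbim4 (0.743), Etv5 (0.739), Gpr158 (0.732) and Grina (0.723). None of these was called with age in striatum Drd2 cells, though Etv5, a transcription factor induced by ERK signalling, lay lower in every old array than in any young one (-0.65, adjusted p 0.0575). The genes were picked for their likeness, the arrays share hybridisation and scaling, and the correlations are a description.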
